A study of Mus musculus with 18 samples.

Results

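Messenger RNA in the RNP fraction of mouse testes was compared between 22 and 17 days of age. Of the 18 arrays of the study, 6 form this comparison: the 3 RNP arrays of 22-day testes and the 3 RNP arrays of 17-day testes. They were chosen by the fraction and age in their labels, and all 22626 probe sets that are not controls were considered. All animals were CD1 mice, an outbred laboratory strain, with no treatment or altered allele named in the labels, and testes of adults of unstated age were profiled alongside. Cytoplasmic extracts were run on sucrose gradients of 10 to 30%, and of the 17 gradient fractions, 2 to 8 gave the RNP sample and 11 to 17 the polysome sample. The labels number the biological replicates but do not say how many animals went into each, so p-values reflect only how far these samples spread, which may be technical.

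RNPs (ribonucleoprotein particles) are complexes of messenger RNA with proteins that sediment slowly because they carry few or no ribosomes, and polysomes are messenger RNAs loaded with several ribosomes. Male germ cells are known for making many messenger RNAs well before their proteins appear. The transcripts of the protamines, the transition proteins and many tail proteins are made in round spermatids, held in RNPs, and translated when elongating spermatids condense their chromatin and build the tail. The first wave of spermatogenesis runs through the young testis almost in step, with spermatocytes appearing before the first round spermatids, while the number of Sertoli cells becomes fixed early.

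Values are MAS5 intensities in the authors' units. Differences are log2(22-day value + 15.4) minus log2(17-day value + 15.4), averaged over 3 arrays a group, with the standard error (SE) of the limma model, and folds are on the same scale, so they understate the change of genes with low values. The median of all values, 51.6, served as the filter: a probe set was tested when 3 or more of the 18 arrays exceeded it, which left 14066. Adjusted p-values are limma's, after Benjamini-Hochberg adjustment over all 14066, and "called" means adjusted p under 0.05. Unless a sentence says otherwise, a gene named as higher or lower in RNPs kept that call in each of up to 19 other settings. The RNP call was followed for 1 probe set of a gene where the text gives further ones only as a value. Calls on polysomes and of the difference between fractions were not followed gene by gene. Testes are mixed tissue, so more RNA in each cell, more cells of a type and a larger share of that RNA in RNPs cannot be told apart here. Each array was scaled to the same trimmed mean, so every level is relative to the other transcripts of its array.

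One array stood apart before any gene was considered. RNP replicate 2 of the 22-day group correlated with the 17-day RNP arrays at 0.914 to 0.927, against 0.839 to 0.850 for replicate 1 and 0.860 to 0.871 for replicate 3. It was the lowest of the 3 in 634 of the 780 probe sets called higher and the highest of the 3 in 1157 of the 1462 called lower. The polysome array of the same number was also low over the risers, by a median of -0.36 on the log2 scale against replicates 1 and 3. Of the signs of RNA integrity, 1 moved with age. The ratio of the 3′ to the 5′ probe set for actin was 2.37 to 3.01 in the 17-day RNP arrays and 1.53 to 2.00 in the 22-day ones, which do not overlap, and its part in the results was not tested. The same ratio for Gapdh was 1.20 to 2.26 at 17 days and 1.27 to 1.55 at 22 days, which overlap. The 17-day replicate 2 also had the highest mean of the added poly-A control transcripts, 561 against 138 in both other 17-day RNP arrays.

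Between 17 and 22 days 2242 of 14066 probe sets changed in RNPs (15.9%), 780 of them higher (5.55%, 664 genes) and 1462 lower (10.4%, 1104 genes). Rises were fewer but larger. Of the rises 198 were at least 4-fold and 36 at least 16-fold, against 21 and 0 of the falls, and the median called rise was 1.34 against a median called fall of -1.05. The 3 arrays of one age lay wholly outside those of the other in 767 of the rises and 1416 of the falls, an order that 16.3% and 25.7% of all tested probe sets showed in the respective direction. The median over all tested probe sets was itself -0.11, and the split depended on this shift: it was 937 higher and 1020 lower after median centring, 833 and 990 after quantile normalization, and 888 and 1082 after quantile normalization within each fraction. The total was 1166 without 17-day RNP replicate 1, 1364 without 17-day replicate 3, 855 without 22-day replicate 1 and 1046 without 22-day replicate 3. Without 22-day replicate 2, the array that stood apart, it was 2396. Another 19 genes had probe sets called in both directions. At the threshold itself lay 1700029F12Rik, Asap1 and Htra1 just inside and Ndrg1, Trim25 and Usp9x just outside, all with adjusted p = 0.05 after rounding.

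The rise was led by genes that package the sperm nucleus. All 6 tested genes of the chromatin condensation list rose, against 5.55% of all tested probe sets. Their median was 4.25, against a median of -0.11 over all tested probe sets. Summed over the 6, RNP intensities were 59 to 110 at 17 days and 990 to 11040 at 22 days, so the ages did not overlap but the 22-day arrays spread widely. On polysomes the sums were 50 to 118 and 221 to 1860. All 6 stayed called in each setting run.

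Hils1, which encodes a linker histone of spermatids, had the largest rise of all. Its values were 3.4, 4.4 and 2.6 at 17 days and 2359.0, 460.2 and 1425.7 at 22 days in replicates 1, 2 and 3. All 22-day arrays lay far above all 17-day ones, and replicate 2 was the lowest. The difference was 5.96 ± 0.47 SE (62.4-fold, adjusted p = 2.25e-07, n = 3 per group), and 6.62 without 22-day replicate 2.

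Tnp1 and Tnp2 encode the transition proteins that replace histones before protamines are laid down. Tnp1 read 3.4, 2.3 and 1.8 at 17 days and 1660.3, 76.1 and 727.4 at 22 days. Its groups did not overlap, yet replicate 2 reached only 6.37% of the mean of the other 22-day arrays. The difference was 4.76 ± 0.78 (adjusted p = 0.000537), and it was 3.87 without 22-day replicate 1 and 5.96 without replicate 2. A second Tnp1 probe set rose by less, from 5.2, 0.8 and 4.9 to 50.6, 26.1 and 27.3 (1.37 ± 0.27). Tnp2 read 7.6, 2.3 and 2.1 at 17 days and 1483.0, 30.1 and 926.0 at 22 days. Here replicate 2 held 2.50% of the mean of the others and stayed below the filter value of 51.6, although above every 17-day array. The difference was 4.38 ± 0.87 (adjusted p = 0.00251), with 3.43, 5.95 and 3.76 when 22-day replicates 1, 2 and 3 were left out in turn.

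Prm1 and Prm2 encode the protamines, the small basic proteins of the mature sperm nucleus. Prm1 read 32.8, 16.3 and 33.4 at 17 days and 2959.8, 121.3 and 962.4 at 22 days. Replicate 2 was again the lowest, at 6.19% of the mean of the others, and still above every 17-day array. The difference was 4.13 ± 0.80 (17.5-fold, adjusted p = 0.00213), with 3.12 and 5.34 when 22-day replicates 1 and 2 were left out. The other Prm1 probe sets gave 4.08 and 4.10, and their names mark them as ones whose probes can match other transcripts, as does that of the first. Prm2 read 37.7, 4.5 and 27.0 at 17 days and 2072.6, 90.5 and 915.9 at 22 days, a difference of 4.06 ± 0.79 (adjusted p = 0.00207), with 3.14 and 5.30 without 22-day replicates 1 and 2. Prm3, a related gene of the protamine cluster, rose from 28.8 ± 4.15 to 368 ± 147 (SD, n = 3), a difference of 3.04 ± 0.36.

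Sequence upstream of these genes is shown because the transcripts moved together and because CREM, the activator known to switch on haploid genes in spermatids, binds cAMP response elements in such promoters. The stretches are the 120 bases before the RefSeq start in build GRCm38.p6, read 5′ to 3′ on the gene's strand. Capitals mark matches to TGACGTCA, to the looser TGANNTCA, to TATAAA or to GTTGCC on either strand. Of 10 genes looked up, 9 had a window in the RefSeq table. The 6 with a match in this stretch that are shown stand for the leading risers of the nucleus and tail. Odf3 also had a match, GTTGCC 65 bases before its start, and is not shown. A second start of Akap4, not shown, had TGANNTCA 234 bases before it but no match in its 120 bases. The stretches of Smcp and Tnp2 held no match.
Prm1, chr16:10796824-10796943, minus strand: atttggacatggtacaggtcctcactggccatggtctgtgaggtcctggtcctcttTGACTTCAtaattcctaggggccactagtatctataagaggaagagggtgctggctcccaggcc
Prm2, chr16:10792106-10792225, minus strand: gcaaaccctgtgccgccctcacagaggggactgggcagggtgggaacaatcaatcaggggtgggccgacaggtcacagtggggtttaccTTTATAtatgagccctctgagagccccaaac
Tnp1, chr1:73015900-73016019, minus strand: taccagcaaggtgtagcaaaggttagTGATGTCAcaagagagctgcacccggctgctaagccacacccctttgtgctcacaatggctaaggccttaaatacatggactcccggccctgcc
Hils1, chr11:94967473-94967592, plus strand: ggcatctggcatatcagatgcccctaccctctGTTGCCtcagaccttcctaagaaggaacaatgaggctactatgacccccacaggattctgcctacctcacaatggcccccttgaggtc
Akap4, chrX:7067395-7067514, plus strand: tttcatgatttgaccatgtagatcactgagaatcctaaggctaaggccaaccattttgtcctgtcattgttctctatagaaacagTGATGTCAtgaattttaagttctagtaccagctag
Spag4, chr2:156065093-156065212, plus strand: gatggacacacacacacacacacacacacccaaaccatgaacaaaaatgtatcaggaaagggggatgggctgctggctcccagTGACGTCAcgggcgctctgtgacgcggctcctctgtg

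In these windows Spag4 held the full element TGACGTCA 37 bases before its start, while Prm1, Tnp1 and Akap4 held the looser TGANNTCA 64, 94 and 35 bases before theirs. Over the 250 bases before each start, TGANNTCA was found in 29.2% of windows of genes called at least 4-fold higher (61 of 209), in 15.2% of windows of all genes called higher, in 8.72% of windows of tested genes, in 7.08% of windows of genes called lower and in 11.9% of all windows in the table. This looser form, which includes TGACGTCA, was added after the data had been seen. The full TGACGTCA showed no such order, at 2.39%, 2.45%, 2.58%, 2.39% and 1.55% in the same sets, and neither did TATAAA, at 5.74%, 7.99%, 6.58%, 6.23% and 12.4%. GTTGCC, a core of the sites of RFX factors, was in 16.7%, 14.6%, 10.6%, 8.79% and 10.4%, and TGACGCAA in at most 1.11% of any set. The shares count windows, some genes have several, and a match is a description of letters, not a site.

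Crem itself was not called. Its brighter probe set read 112.4, 68.5 and 125.5 at 17 days and 80.2, 76.0 and 79.3 at 22 days in RNPs (-0.29, adjusted p = 0.48), groups that overlap. The other Crem probe set differed by -0.11 and by 0.0029 to 0.0064 under the 3 scalings, so its sign has no weight.

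**Figure D1:**
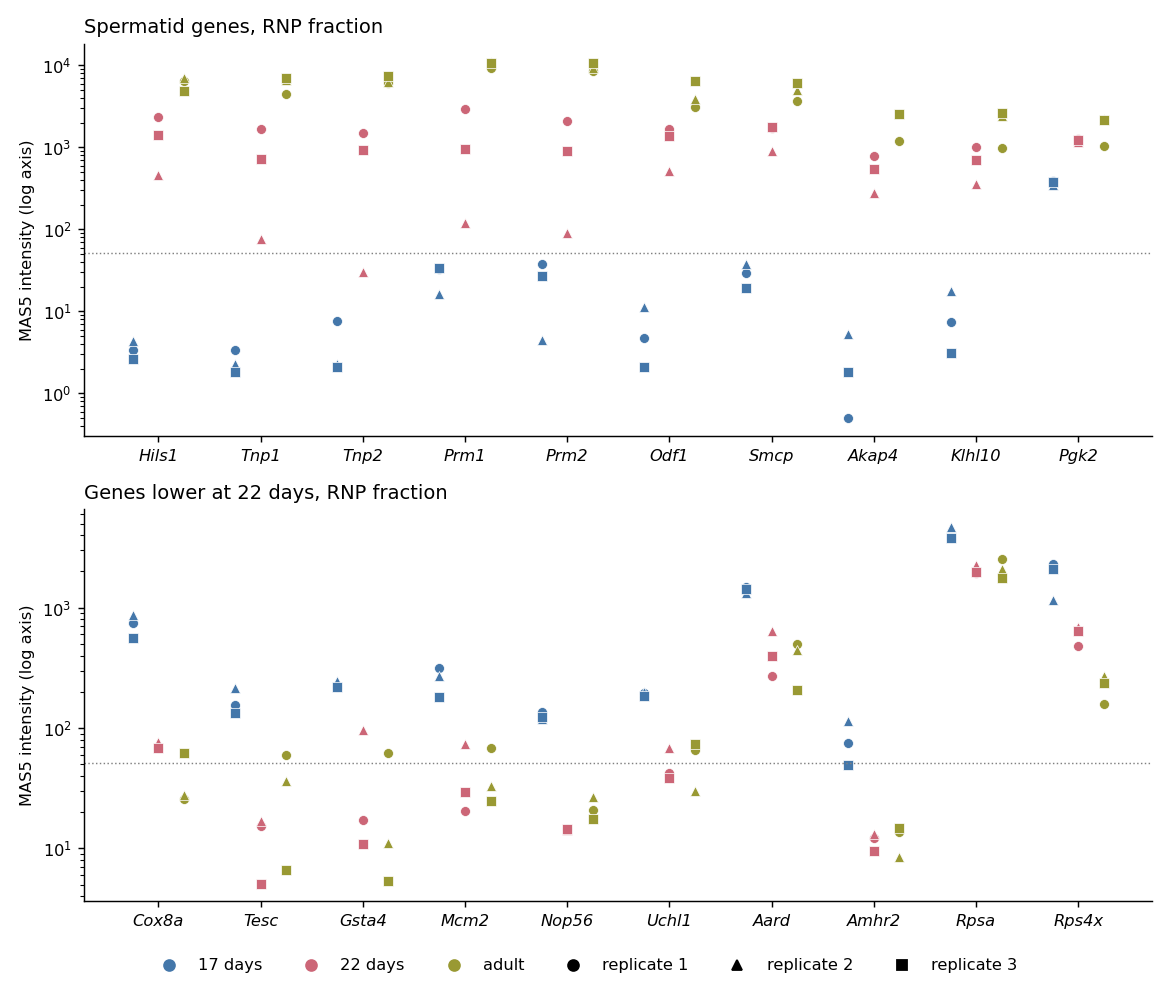
MAS5 intensity (log axis) of 10 spermatid genes (top) and 10 genes lower at 22 days (bottom) in each RNP array at 17 days, 22 days and in adults, with 1 point per array, the replicate number as the marker shape and the filter value of 51.6 as a dotted line. The 22-day values of Tnp1, Tnp2, Prm1 and Prm2 spread over more than a 10-fold range with replicate 2 (triangles) lowest, while those of Pgk2 lie between 1170.4 and 1275.9.

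Genes of the sperm tail rose next. Of 23 tested sperm tail genes, 17 rose and 0 fell in RNPs (5.55% and 10.4% of all tested probe sets). The median was 1.54, and 22 of the 23 differences were positive. On polysomes 15 of the 23 rose and 0 fell (2.4% and 0.327% of all tested probe sets), with a median of 1.51. The RNP count was 11 without 22-day replicate 1, without 22-day replicate 3 or without 17-day replicate 2. Odf1, a main component of the dense fibres that stiffen the tail, read 4.8, 11.2 and 2.1 at 17 days and 1663.6, 509.5 and 1377.8 at 22 days. The groups were far apart, and the difference was 5.66 ± 0.42 (50.7-fold, adjusted p = 1.83e-07). Smcp, a cysteine-rich protein of the mitochondrial sheath, read 29.2, 38.4 and 19.3 and then 1746.8, 906.7 and 1769.0 (5.03 ± 0.33, adjusted p = 3.86e-08). In this gene replicate 2 held 51.6% of the mean of the others, so the spread was narrow beside that of Prm1.

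Akap4, the main scaffold protein of the fibrous sheath, rose in all 3 of its probe sets, with differences of 4.84 ± 0.37, 4.56 ± 0.50 and 3.49 ± 0.44. The first of these read 0.5, 5.3 and 1.8 at 17 days and 786.0, 281.5 and 543.6 at 22 days. Akap3, the sheath scaffold that forms earlier in the tail, rose from 48.0 ± 8.61 to 532 ± 103 (3.10 ± 0.35). Odf3, another outer dense fibre gene, read 4.6, 3.4 and 2.6 and then 885.7, 193.6 and 499.3 (4.60 ± 0.57), and Spag4, a membrane protein of the spermatid, 15.1, 8.1 and 7.1 and then 837.3, 291.6 and 576.3 (4.41 ± 0.34). In both, every 22-day array was far above every 17-day array. Other members that rose were the mitochondrial sheath gene Spata19 (4.36 ± 0.42, and 4.98 without 22-day replicate 2), the sheath proteins Ropn1 (3.22 ± 0.39) and Cabyr (2.86 ± 0.38), the sperm calcium channel gene Catsper1 (2.26 ± 0.33) and the tektin gene Tekt2 (1.82 ± 0.30).

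Not every tail gene was new to the RNP fraction at 22 days. Rsph1, a radial spoke protein, averaged 5035 at 17 days and 4825 at 22 days (-0.10, adjusted p = 0.83). Meig1, a gene of the manchette, averaged 2197 and 2900 (0.40, adjusted p = 0.17), and Spa17 1672 and 2368 (0.50, adjusted p = 0.12). These genes were already high at 17 days, and their differences did not pass the test.

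Acrosome and sperm surface genes rose in 8 of 18 tested members and fell in 0 (5.55% and 10.4% of all tested probe sets). Their median was 1.15. Only 4 rises were called without 22-day replicate 1, and 5 without 22-day replicate 3 or 17-day replicate 2. Actl7a, an actin-related protein of the acrosomal region, read 15.1, 30.2 and 6.5 and then 936.3, 253.0 and 799.0 (4.25 ± 0.41, adjusted p = 1.95e-06). Capza3, an actin-capping subunit of germ cells, read 15.3, 10.5 and 9.6 and then 638.4, 197.4 and 537.3 (3.97 ± 0.42). In both genes the age groups were far apart. Eqtn, an acrosomal membrane protein, rose from 2.30 ± 3.46 to 112 ± 49.5 (2.77 ± 0.45), and the related actin gene Actl7b by 1.68 ± 0.30. Acrv1, a protein of the acrosomal matrix, read 14.8, 21.3 and 14.5 and then 224.8, 86.3 and 180.0 (2.39 ± 0.56, adjusted p = 0.0075), and without 22-day replicate 1 the adjusted p was 0.0525. Acr, the acrosomal protease acrosin, was present at 17 days already, with 722.6, 759.5 and 797.0 against 1393.1, 1091.5 and 1498.8 at 22 days. Its groups did not overlap, but the difference of 0.78 ± 0.27 missed the threshold (adjusted p = 0.0541), and it passed in 5 of 19 other settings. These were median centring (adjusted p = 0.0412), the filter at the 75th percentile (0.0446), only the arrays compared in the fit (0.00944), the replicate number as a block (0.0229) and leaving out 22-day replicate 2 (0.0449).

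Spermatid kinases and regulators rose in 10 of 20 tested members and fell in 0 (5.55% and 10.4% of all tested probe sets). Their median was 0.84, and 6 were called without 22-day replicate 1. Tssk2, a testis-specific serine kinase, read 11.9, 22.0 and 2.7 at 17 days and 858.1, 272.9 and 568.0 at 22 days (4.32 ± 0.34, adjusted p = 2.22e-07). Its relatives Tssk3 (3.08 ± 0.38) and Tssk1 (2.33 ± 0.31) rose as well. Gsg1, a germ cell gene, read 48.6, 67.0 and 48.1 and then 1824.0, 674.0 and 1536.3 (4.17 ± 0.34). Fhl5, the coactivator of CREM also called ACT, read 6.0, 4.0 and 19.2 and then 615.5, 165.8 and 562.1 (4.06 ± 0.47). For Tssk2, Tssk3, Gsg1 and Fhl5 the age groups were wholly apart and replicate 2 was the lowest at 22 days. Ccna1, the cyclin of late meiosis, rose by 2.05 ± 0.34.

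Among the germ cell isozymes, which replace somatic enzymes of metabolism in sperm, 8 of 19 rose and 1 fell, with a median of 0.74. Over all tested probe sets the shares were 5.55% and 10.4%. Gapdhs, the glyceraldehyde phosphate dehydrogenase of the sperm sheath, read 92.5, 55.5 and 39.1 and then 1341.2, 411.2 and 1117.2 (3.54 ± 0.36, adjusted p = 3.38e-06). The retrogene aldolases rose too, Aldoart2 by 3.82 ± 0.35 and Aldoart1 by 2.08 ± 0.34, and so did the heat shock gene Hspa1l (2.69 ± 0.54, with 2.03 and 3.54 without 22-day replicates 1 and 2), the hexokinase gene Hk1 (1.89 ± 0.25) and Ace (2.07 ± 0.44). Pgk2, the phosphoglycerate kinase of germ cells, read 391.8, 346.8 and 377.8 and then 1275.9, 1170.4 and 1246.1 (1.69 ± 0.33, adjusted p = 0.00237). It is an early gene with tight replicates, and its replicate 2 held 92.8% of the mean of the others. Ldhc, the lactate dehydrogenase of germ cells, was not called: one probe set read 6649.5, 7155.6 and 6873.0 and then 9075.4, 7948.6 and 8111.6 (0.28, adjusted p = 0.092), and the other differed by -0.03, a sign that turned under the 3 scalings. Hspa2, a chaperone of meiotic cells, read 904.9, 688.7 and 780.6 and then 1188.0, 1090.1 and 1870.6 (0.76, adjusted p = 0.089). The 1 fall was Tubb3, a beta-tubulin gene, by -0.84 ± 0.20, whose adjusted p was 0.0577 without 22-day replicate 1.

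Somatic enzymes of the same pathway were listed beside them. Of 12 tested somatic glycolysis genes, 3 fell and 1 rose (10.4% and 5.55% of all tested probe sets), with a median of -0.26. Their summed RNP intensities were 6144 to 6819 at 17 days and 7028 to 8427 at 22 days, higher with no overlap. Pgam1, the somatic phosphoglycerate mutase, read 324.1, 286.1 and 323.1 and then 105.3, 144.5 and 111.0 (-1.28 ± 0.25, adjusted p = 0.00206), and Hk2, a second hexokinase, 277.8, 220.0 and 220.5 and then 66.7, 117.4 and 111.9 (-1.18 ± 0.23). Both had groups that did not overlap. The third was the pyruvate kinase gene Pkm (-1.04 ± 0.25), whose adjusted p was 0.0716 without the replicate 2 arrays of both ages. Pfkp, a phosphofructokinase, was the 1 that rose (1.22 ± 0.32, adjusted p = 0.0155), a call lost without 17-day replicate 3 (adjusted p = 0.0510), 22-day replicate 1 (0.0697), 22-day replicate 3 (0.0637) or the replicate 2 arrays of both ages (0.0502).

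**Figure D2:**
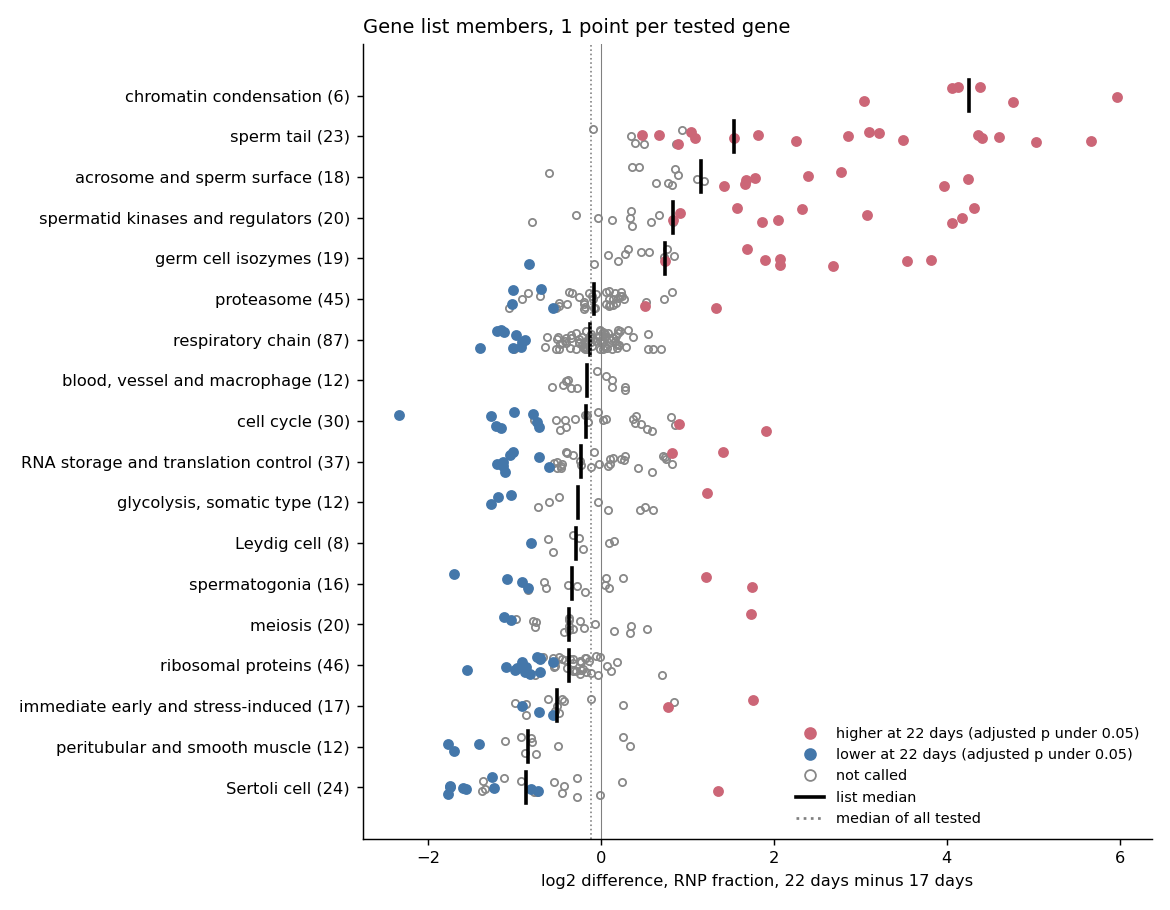
Log2 difference in the RNP fraction, 22 days minus 17 days, of every tested member of 18 gene lists (number tested in brackets), 1 point per gene, with filled points for called members, black bars for list medians and a dotted line for the median of all tested probe sets at -0.11. List medians run from 4.25 for chromatin condensation to -0.86 for Sertoli cell genes, and every list from proteasome downward has a median below 0.

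Beyond the lists, the largest rises included genes with less settled roles in the testis. Dpysl3, a cytoskeletal regulator best known from neurons, read 7.7, 8.1 and 14.4 at 17 days and 1416.4, 451.7 and 1079.5 at 22 days in one probe set (5.16 ± 0.45, adjusted p = 7.09e-07). A second Dpysl3 probe set rose by 2.93, but the third differed by -0.39 (adjusted p = 0.21), so the probe sets of this gene disagree. St6galnac2, a sialyltransferase, read 2.8, 3.0 and 1.7 and then 738.3, 267.5 and 602.8 (4.83 ± 0.38). Klhl10, a substrate adaptor of an ubiquitin ligase that spermatids need, read 7.5, 17.5 and 3.1 and then 1019.8, 360.3 and 693.7 (4.76 ± 0.41). Nt5c1b, a cytosolic nucleotidase, read 22.9, 18.5 and 3.2 and then 994.9, 414.6 and 835.9 (4.63 ± 0.37). Cypt1, a gene of the spermatid nucleus, rose by 4.57 ± 0.44 and Iqcf3 by 4.52 ± 0.37. In all 6 the 22-day arrays lay far above the 17-day ones, with replicate 2 lowest.

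How low the second replicate lay differed between genes. Over the 51 named probe sets called higher, its value was below the mean of replicates 1 and 3 in 48, with a median of 42.1% and a range from 2.50% (Tnp2) to 127% (Inhba). Tnp2, Prm1, Prm2, Tnp1 and Hspa1l held 2.50 to 9.29% of that mean, apart from the second Tnp1 probe set at 67.0%. Odf1 held 33.5%, Hils1 24.3%, Akap4 41.1 to 62.0%, Gapdhs 33.5%, Smcp 51.6%, Tdrd7 83.0% and Pgk2 92.8%. Polysome replicate 2 of the same age gave 9.33% for Tnp2, 11.5% for Prm2, 36.9% for Odf1, 54.5% for Smcp and 70.0% for Pgk2. From 22 days to adults 1964 probe sets changed in RNPs (14%), 858 higher (6.1%) and 1106 lower (7.86%), a comparison that shares the 22-day arrays. Without 22-day replicate 2 the count was 668, with 461 higher and 207 lower. Several of the same transcripts were higher still in adults. Tnp2 read 6130.0, 6362.5 and 7406.7 there, Prm2 8577.3, 9393.9 and 10794.8, Hils1 6504.4, 7030.2 and 4877.2 and Gapdhs 6263.5, 6793.8 and 6262.6, each above every 22-day array. Pgk2, at 1026.5, 2234.0 and 2174.9, overlapped its 22-day values.

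Of 14066 tested probe sets, more crossed the filter value of 51.6 downward in RNPs (348) than upward (258). Either crossing puts 3 arrays above that value, which is by itself enough to be tested. The crossings are picked on the RNP values that the call tests, so their calls are largely built in. In 258 probe sets all 3 RNP arrays were below it at 17 days and all 3 above it at 22 days. Of these 195 were called higher, against 5.55% of all tested probe sets. Of the 258, 191 were also below it in every 17-day polysome array, and 109 were above it in every 22-day polysome array. The reverse, above it at 17 days and below it at 22 days in every RNP array, held for 348 probe sets. Of these 194 were called lower, against 10.4% of all tested probe sets. Of the 348, 284 were above it in every 17-day polysome array and 196 in every 22-day polysome array. The share of all tested probe sets that met these polysome conditions was not counted.

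The largest falls had no single theme. Cox8a, a subunit of cytochrome c oxidase, read 749.7, 862.1 and 561.5 at 17 days and 67.9, 76.5 and 68.3 at 22 days (-3.08 ± 0.49, 8.46-fold lower, adjusted p = 0.000405). That probe set is marked as able to match other transcripts, and the second one for Cox8a differed by only -0.48 (adjusted p = 0.2). Tesc, a calcium-binding protein, read 155.9, 213.7 and 133.9 and then 15.4, 16.8 and 5.1 (-2.72 ± 0.42). Gsta4, a glutathione transferase, read 220.3, 246.5 and 218.9 and then 17.3, 96.6 and 10.8 (-2.41 ± 0.45, and -3.06 without 22-day replicate 2). Nkain1, a protein that interacts with the sodium pump, read 120.5, 184.8 and 110.0 and then 12.7, 13.3 and 13.3 (-2.40 ± 0.30), and Ryk, a receptor for Wnt ligands, fell in both of its probe sets (-2.39 ± 0.44 and -2.26). The groups of all 5 were wholly apart.

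Nop56, a nucleolar protein of ribosome assembly, read 136.6, 118.0 and 124.4 and then 14.6, 14.3 and 14.6 (-2.24 ± 0.29, adjusted p = 4.84e-05), while its second probe set gave -0.50 (adjusted p = 0.21). Bgn, the matrix proteoglycan biglycan, fell in its 3 probe sets (-2.23 ± 0.46, -1.80 and -1.02). Atp1b2, a subunit of the sodium pump, gave -2.23 ± 0.44 and, in a second probe set, -0.23 (adjusted p = 0.47). Htra3, a secreted protease, gave -2.16 ± 0.34 and, in a second probe set, 0.14 (adjusted p = 0.71). Celf2, an RNA-binding protein, fell in its 3 probe sets (-2.14 ± 0.49, -1.61 and -1.35), the first with -2.75 without 22-day replicate 2 and an adjusted p of 0.0539 without replicate 1. Cnn3, an actin-binding calponin, fell in 5 of its 6 probe sets, the steepest by -2.17 ± 0.51, which was -2.77 without 17-day replicate 2 and missed the threshold without 17-day replicate 1 (adjusted p = 0.0521) or 22-day replicate 1 (0.0524).

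Sertoli cell genes fell in 9 of 24 tested members and rose in 1 (10.4% and 5.55% of all tested probe sets). Their median was -0.86. The falls numbered 3 without 22-day replicate 1, 4 without 22-day replicate 3 or 17-day replicate 1, 5 without 17-day replicate 3 and 6 without 17-day replicate 2. Aard, a Sertoli cell gene of the young testis, read 1486.4, 1324.3 and 1422.7 and then 270.0, 634.7 and 396.4 (-1.75 ± 0.31, adjusted p = 0.000949). Amhr2, the receptor of anti-Müllerian hormone, read 74.6, 115.3 and 49.7 and then 12.1, 13.2 and 9.5 (-1.76 ± 0.35). Dmrt1, a transcription factor of Sertoli cells and spermatogonia, read 326.6, 149.3 and 238.3 and then 40.3, 91.7 and 48.5 (-1.74 ± 0.30). All 3 had groups that did not overlap.

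The defining Sertoli markers were less clear. Rhox5, a homeobox gene, differed by -0.45 (adjusted p = 0.3), and Amh lay near or below the filter value at both ages (23.3, 55.1 and 16.3, then 14.7, 52.8 and 8.4). Clu, a secreted chaperone, was called in 1 of its 4 probe sets (-1.77 ± 0.55, adjusted p = 0.035), a call that ended without any one of the 6 arrays except 22-day replicate 2 (adjusted p from 0.0505 to 0.149), and also under quantile normalization (0.0546), with no filter (0.0614) and without the replicate 2 arrays of both ages (0.0863). Vim, the intermediate filament of Sertoli cells, fell in all 3 of its probe sets (-1.58, -1.59 and -1.62), although the brightest missed the threshold without 17-day replicate 1 (adjusted p = 0.0852), 17-day replicate 3 (0.0754), 22-day replicate 1 (0.0510) or 22-day replicate 3 (0.116). Inhba, an activin subunit, was the 1 member that rose, from 33.6, 10.4 and 21.3 to 77.9, 90.0 and 63.9 (1.36 ± 0.43, adjusted p = 0.0379), and its call was lost in 9 of 18 other settings, with an adjusted p of up to 0.227. Those included leaving out 17-day replicate 2 or 3 or any 22-day array (adjusted p from 0.0777 to 0.127). Summed over the list, Sertoli intensities were 5796 to 6406 in 17-day RNPs and 2008 to 3216 in 22-day RNPs. On polysomes they were 13578 to 18554 and 8386 to 16900, which overlap.

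Of 12 peritubular and smooth muscle genes, 3 fell and 0 rose (10.4% and 5.55% of all tested probe sets), with a median of -0.84. Myl9, a myosin light chain, read 548.2, 467.4 and 426.8 and then 98.8, 205.0 and 105.6 (-1.77 ± 0.34, adjusted p = 0.00184), and the collagen gene Col3a1 394.5, 277.3 and 209.9 and then 90.5, 100.3 and 49.6 (-1.69 ± 0.37). Acta2, smooth muscle actin, was not called (-0.93, adjusted p = 0.084), and Myh11 was below the filter. The list summed to 2424 to 3257 at 17 days and 1158 to 1919 at 22 days. On polysomes it summed to 6137 to 7120 and 3017 to 5356, also lower with no overlap. Leydig cells, the source of testosterone, gave 1 fall in 8, Nr5a1 (-0.81 ± 0.23, adjusted p = 0.025), whose call was lost in 8 of 19 other settings, under each of the 3 scalings (adjusted p from 0.0563 to 0.0939) and without 17-day replicate 2 (0.0841), 17-day replicate 3 (0.0772), 22-day replicate 1 (0.0943), 22-day replicate 3 (0.122) or the replicate 2 arrays of both ages (0.0665). Their defining genes Cyp17a1 (0.15) and Star (0.09 in its brightest probe set) were not called. None of 12 blood, vessel and macrophage genes was called, with Lyz2 at -0.05 and Csf1r at -0.35, and Hba-a1 and Pecam1 stayed below the filter.

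Of 16 spermatogonial genes, 4 fell and 2 rose, against 10.4% and 5.55% of all tested probe sets, with a median of -0.33. The falls numbered 2 without 22-day replicate 1 or 17-day replicate 1. Summed RNP intensities of the list were 2618 to 3443 at 17 days and 3473 to 3948 at 22 days, higher with no overlap. That sum leans on the bright member Dmrtb1, which read 793.3, 1221.1 and 830.4 and then 2543, 1875 and 2151.7. The mean log2 level of the list, in which each gene counts equally, was 6.75 to 7.06 and then 6.63 to 6.76, which overlap. Of the 16 differences, 10 were negative and 6 positive, so the sum does not show a rise of the list as a whole. Uchl1, a ubiquitin hydrolase of spermatogonia, read 196.8, 197.9 and 183.4 and then 42.7, 68.1 and 38.7 (-1.70 ± 0.26, adjusted p = 0.000304), and the DNA methyltransferase gene Dnmt3b 157.2, 197.5 and 122.7 and then 50.1, 70.4 and 78.5 (-1.09 ± 0.22). Both had groups wholly apart. Stra8, which starts meiosis in answer to retinoic acid, fell by -0.92 ± 0.23 (adjusted p = 0.0125), with 0.0519 without 17-day replicate 1 and 0.0896 without 22-day replicate 1. The 2 that rose were Dmrtb1, a factor at the switch from mitosis to meiosis, from 948 ± 237 to 2189.9 ± 336 (1.21 ± 0.24), and Dnmt3l, a cofactor of DNA methylation, from 16.1, 4.7 and 6.7 to 72.3, 59.1 and 65.3 (1.75 ± 0.34).

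Of 20 meiosis genes, 17 were not called, 2 fell and 1 rose, near the 10.4% and 5.55% of all tested probe sets. Sycp3, part of the synaptonemal complex, read 308.4, 369.8 and 424.1 and then 308.8, 325.0 and 213.8 (-0.37, adjusted p = 0.34), and Sycp1 gave -0.98 (adjusted p = 0.079). Rec8, a meiotic cohesin subunit, was the 1 that rose, from 4.7, 11.4 and 3.1 to 74.0, 56.0 and 42.4 (1.74 ± 0.30, adjusted p = 0.000936). The 2 falls, of the recombination genes Dmc1 (-1.04, adjusted p = 0.0394) and Mnd1 (-1.12, adjusted p = 0.0313), were lost in 12 and 10 of 18 other settings. Among these were all 3 scalings (adjusted p from 0.0506 to 0.0746), and leaving out 17-day replicate 1 (0.172 and 0.0895), 17-day replicate 3 (0.130 and 0.117), 22-day replicate 1 (0.188 and 0.140) or 22-day replicate 2 (0.0561 and 0.0673), and for Dmc1 also 22-day replicate 3 (0.0640).

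Among 30 cell cycle genes, 8 fell and 2 rose (10.4% and 5.55% of all tested probe sets), with a median of -0.17. The falls numbered 3 without 22-day replicate 1 or 3, 4 without 17-day replicate 1 and 5 without 17-day replicate 3. The DNA replication helicase genes led, Mcm2 from 313.9, 272.0 and 179.4 to 20.3, 73.1 and 29.6 (-2.34 ± 0.42, adjusted p = 0.00121) and Mcm3 from 150.2, 151.1 and 142.3 to 50.1, 61.1 and 54.7 (-1.21 ± 0.25). Tk1, the thymidine kinase of S phase, fell by -1.16 ± 0.23. The kinases of division rose instead, Plk1 from 158.4, 513.8 and 150.5 to 1033.0, 752.0 and 980.8 (1.90 ± 0.40, adjusted p = 0.00357) and Aurka by 0.91 ± 0.23 (adjusted p = 0.0119). The Plk1 groups did not overlap. The call of Aurka was lost without 17-day replicate 1 (adjusted p = 0.0626), 17-day replicate 3 (0.0620) or 22-day replicate 1 (0.0645).

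Most genes for proteins that store messenger RNA or control its translation did not pass the test. Of 37 such genes 27 were not called, 8 fell and 2 rose (10.4% and 5.55% of all tested probe sets), with a median of -0.23. Summed RNP intensities of the list were 30772 to 33589 at 17 days and 35827 to 38123 at 22 days, higher with no overlap. Ybx2, the RNA-binding protein of germ cell RNPs also called MSY2, read 3643.0, 2724.1 and 3672.9 and then 3487.5, 4055.2 and 4590.7 (0.28, adjusted p = 0.55), which overlap. Piwil1, the Piwi protein MIWI, differed by -0.08 (adjusted p = 0.83), which turned to 0.03 after median centring, and Ddx4, the helicase of the chromatoid body, by 0.14 (adjusted p = 0.82), which turned to -0.09 without 17-day replicate 2. Tdrd7, another chromatoid body protein, rose from 442.4, 569.6 and 394.8 to 1600.0, 1121.0 and 1101.6 (1.41 ± 0.25, adjusted p = 0.000924). The other rise, of the initiation factor gene Eif4g3, was at the threshold (0.82 ± 0.27, adjusted p = 0.0495) and was lost in 14 of 19 other settings, with an adjusted p of up to 0.277. Those included leaving out any 1 of the 6 RNP arrays (adjusted p from 0.0755 to 0.169).

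Several translational regulators fell. Cpeb1, which controls cytoplasmic polyadenylation, went from 74.0 ± 11.0 to 28.3 ± 8.95 (-1.05 ± 0.21, adjusted p = 0.00246). Celf1, which marks transcripts for decay, read 786.3, 851.3 and 593.2 and then 229.2, 475.1 and 271.4 (-1.21 ± 0.28, adjusted p = 0.00688), with 0.0558 without 22-day replicate 1. Dazl, a germ cell protein that promotes translation, fell in both probe sets (-1.02 ± 0.26 and -1.22), and the first missed the threshold without 22-day replicate 1 (adjusted p = 0.0545) or 3 (0.0895). Paip2, an inhibitor of the poly(A)-binding protein, fell by -1.11 ± 0.30 (adjusted p = 0.0192) and its call ended without 17-day replicate 1 (0.0816), 22-day replicate 1 (0.0693) or 22-day replicate 3 (0.132). The list's falls numbered 1 without 22-day replicate 1, 3 without 22-day replicate 3 and 4 without 17-day replicate 1 or 3.

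Transcripts of the ribosome itself were lower. Messenger RNAs of ribosomal proteins carry a start element that couples their translation to growth signals. Of 46 such genes, 13 fell and 0 rose (10.4% and 5.55% of all tested probe sets). The median was -0.37, and 42 of 46 differences were negative. Summed over the list, intensities were 133150 to 136413 in 17-day RNPs and 101827 to 107649 in 22-day RNPs, with no overlap. On polysomes the sums were 86557 to 94031 and 76141 to 83989, also lower with no overlap, although 0 members were called there. Rps4x read 2305.1, 1165.2 and 2114.4 and then 481.6, 696.9 and 641.2 (-1.55 ± 0.32, adjusted p = 0.00317), Rps19 2547.0, 2781.5 and 2372.1 and then 1116.8, 1549.8 and 1212.8 (-0.99 ± 0.23), and Rpl6 fell from 2361 ± 101 to 1281 ± 104 (-0.88 ± 0.14, adjusted p = 0.000427). These 3 had groups wholly apart. The falls numbered 3 without 22-day replicate 1, 5 without the replicate 2 arrays of both ages, 6 without 22-day replicate 3, 17-day replicate 1 or 17-day replicate 3, and 7 after median centring. The actin ratio, given above, was lower at the later age as well while the Gapdh ratio overlapped, and their part in these falls was not tested.

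The remaining lists had few called members. Of 87 respiratory chain genes 9 fell and 0 rose, the falls near the 10.4% of all tested probe sets and the rises below the 5.55%. The median of -0.12 was also near that of all tested probe sets, and 4 falls were called without 22-day replicate 1. Cycs, the somatic cytochrome c, fell in all 3 of its probe sets, the brightest from 992.3, 1076.3 and 935.6 to 366.4, 528.8 and 260.0 (-1.40 ± 0.26, adjusted p = 0.00146), and the complex I gene Ndufa1 fell by -1.15 ± 0.22. The testis form, Cyct, did not pass the test (-0.08, adjusted p = 0.89). Of 45 proteasome genes 4 fell and 2 rose, near the 10.4% and 5.55% of all tested probe sets, with a median of -0.08. The falls numbered 1 without 22-day replicate 1 or 3, 2 without 17-day replicate 2 or 3 and 0 without the replicate 2 arrays of both ages, and the rises 1 when any array but 17-day replicate 2 was left out. Psmf1, a proteasome inhibitor, rose from 283.7, 363.6 and 338.2 to 1092.1, 543.9 and 1021.0 (1.33 ± 0.26). Immediate early and stress-induced genes mark handling of tissue. Of 17 such genes, 3 fell and 2 rose (10.4% and 5.55% of all tested probe sets), with a median of -0.51. Their summed RNP intensities were 4137 to 4628 at 17 days and 4878 to 5319 at 22 days, higher with no overlap. That sum leans on the bright member Dnajb1, which read 1480.5, 1745.6 and 1595.6 and then 2789.9, 2519.1 and 2981.2. Dnajb1 was called higher, a call lost in 7 of 19 other settings. The mean log2 level of the list, in which each gene counts equally, was 7.03 to 7.21 and then 6.81 to 6.89, lower with no overlap. Of the 17 differences, 13 were negative and 4 positive. The falls numbered 0 without 22-day replicate 1 or 3, without 17-day replicate 1 or 2, or after quantile normalization, and the rises 1 without 17-day replicate 1 or 3 or 22-day replicate 1 or 3. Klf4, a transcription factor also made by spermatids, rose from 100.9, 97.5 and 75.1 to 460.3, 278.9 and 316.0 (1.76 ± 0.28, adjusted p = 0.000465). Actb, beta-actin, differed by -0.09 in its brighter probe set (adjusted p = 0.7), a sign that turned after median centring (0.02) and without 22-day replicate 3 (0.02).

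**Figure D3:**
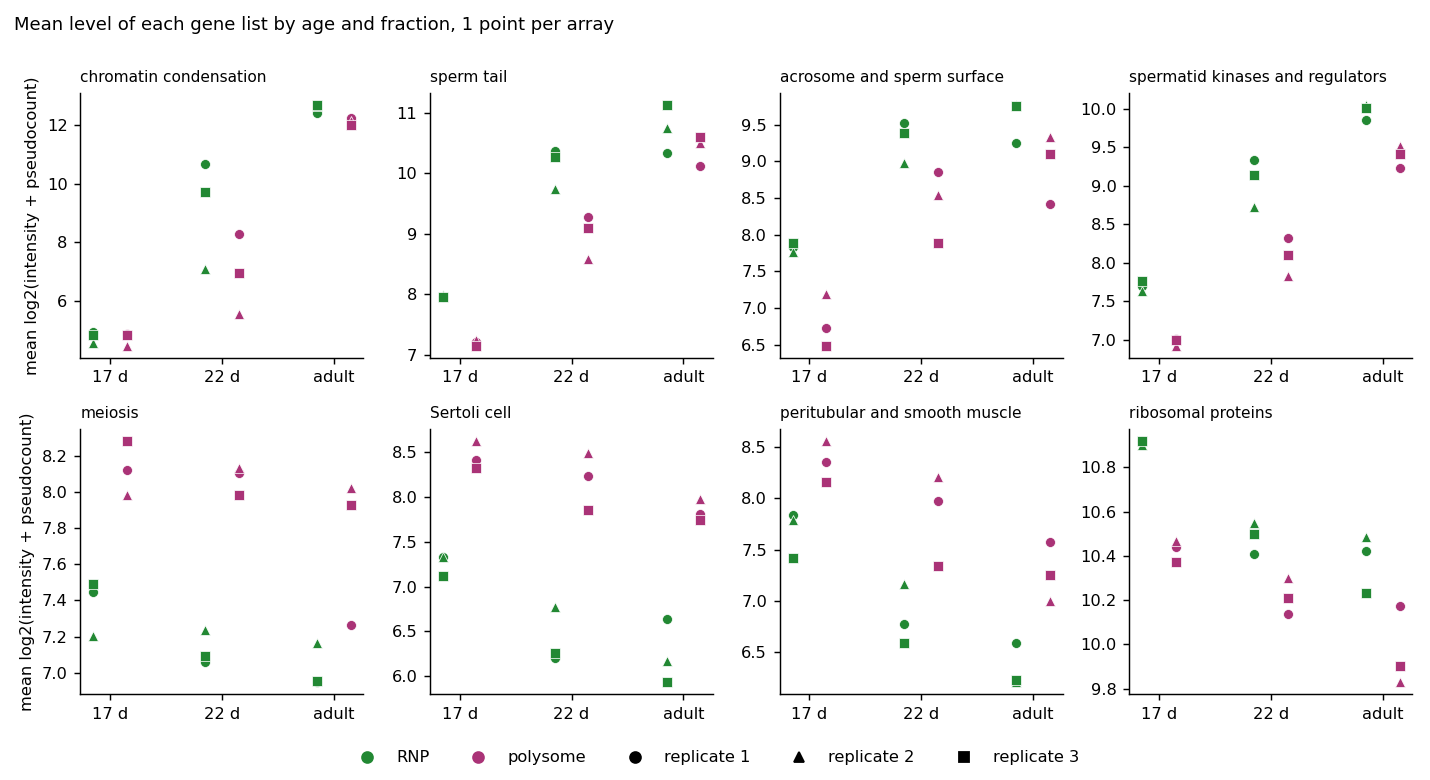
Mean log2(intensity + 15.4) of the tested members of 8 gene lists in each array at 17 days, 22 days and in adults, RNP arrays in green and polysome arrays in purple, with the replicate number as the marker shape and a separate vertical scale for each list. The 22-day RNP arrays lie above the 17-day ones in the first 4 lists and below them in the Sertoli, peritubular and ribosomal protein lists, and RNP replicate 2 (triangles) lies nearest to the 17-day values in most of them.

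The same ages were compared on polysomes to see whether these changes belonged to the RNP fraction. There 384 probe sets changed (2.73%), 338 higher (2.4%) and 46 lower (0.327%). Probe sets higher in both fractions numbered 241, which is 30.9% of the RNP rises and 71.3% of the polysome rises. Those lower in both numbered 32, or 2.19% of the RNP falls and 69.6% of the polysome falls. No probe set was called in opposite directions. The polysome difference had the same sign as the RNP difference in 758 of the 780 rises and 1407 of the 1462 falls, with medians of 0.86 and -0.45. The polysome total was 155 to 241 without polysome replicate 1 or 3 of either age, so the lower count there is itself sensitive to single arrays.

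A test of the difference between the fractions, the RNP change minus the polysome change, called 0 of 14066 probe sets (0%) in limma, with 817 at an unadjusted p under 0.05. It called 91 without 22-day RNP replicate 2. The RNP and polysome arrays of the same age and number deviated together and so were paired, and with the pair as a block limma called 205 (1.46%), 148 with a higher RNP change (1.05%) and 57 with a lower one (0.405%). The blocked count was 325 without the 22-day pair of replicate 2, a setting chosen after the data were seen. Of the 148, 140 were called higher in RNPs (5.55% of all tested probe sets) and 1 lower on polysomes. Of the 57, 47 were called lower in RNPs (10.4% of all tested probe sets) and 7 higher on polysomes. The RNP change is part of the difference tested, so the overlap with RNP calls is largely built in. The values below are from the blocked model.

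Among the genes named, which had to be called in RNPs, Nt5c1b led the higher side. It rose by 4.63 in RNPs, as above, and on polysomes from 8.5, 27.9 and 18.6 to 138.0, 70.4 and 77.6 (1.71), a difference of 2.93 ± 0.35 (adjusted p = 0.00197). Odf1 went from 3.0, 2.3 and 2.9 to 245.6, 65.6 and 110.3 on polysomes, and its RNP change was larger by 2.73 ± 0.28 (adjusted p = 0.000535). Cypt1 differed by 2.65 ± 0.40, Tnp1 by 2.64 ± 0.36, Hils1 by 2.52 ± 0.24, Prm1 by 2.38 ± 0.38 and Prm2 by 2.21 ± 0.34. Prkcq, a protein kinase C, read 6.1, 6.5 and 2.6 and then 320.5, 121.0 and 340.5 in RNPs against 4.7, 3.1 and 6.7 and then 76.2, 8.3 and 18.9 on polysomes (2.58 ± 0.36). Of these, Nt5c1b, Odf1, Cypt1, Tnp1, Hils1 and Prkcq also had every 22-day polysome array above every 17-day one, while the polysome values of Prm1 and Prm2 overlapped between the ages.

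Ica1, a protein of secretory vesicles, did not follow that pattern. In RNPs it went from 5.7, 7.4 and 7.3 to 196.9, 43.1 and 117.1 (2.41 ± 0.50, adjusted p = 0.00362). On polysomes it was already present at 17 days, with 108.4, 52.0 and 66.7, and read 155.4, 14.1 and 52.4 at 22 days (-0.33, adjusted p = 0.82). The difference was 2.75 ± 0.38 (adjusted p = 0.00343).

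In the blocked test 1.05% of all tested probe sets had a higher change in RNPs and 0.405% a lower one. Higher were 5 of 6 chromatin condensation genes, 5 of 23 sperm tail genes, 2 of 18 acrosome genes and 4 of 20 spermatid kinases and regulators. So were 5 of 19 germ cell isozymes and 1 of 12 somatic glycolysis genes. Lower were 2 of 24 Sertoli genes and 1 gene each of the isozyme, RNA storage, peritubular, blood and respiratory chain lists. Smcp, with 5.03 in RNPs and 3.81 on polysomes, missed the threshold of that test (1.22 ± 0.32, adjusted p = 0.0855). So did Acrv1, with 2.39 and 2.83 (-0.44, adjusted p = 0.781), Tdrd7, with 1.41 and 1.11 (0.29, adjusted p = 0.603), and Pgk2, with 1.69 and 1.99 (-0.31, adjusted p = 0.665). The median difference between the fractions was 2.30 for the chromatin condensation list, -0.23 for sperm tail and -0.48 for acrosome, against -0.10 over all tested probe sets.

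The genes named on the lower side also had to be called in RNPs, so their fall there was fixed by the choice. None of them was called on polysomes. Nop56 read 194.7, 176.5 and 143.2 and then 135.3, 205.1 and 121.4 on polysomes (-0.16), and its RNP change was lower by -2.08 ± 0.37 (adjusted p = 0.0133). Foxo3, a transcription factor of stress and survival, fell in RNPs from 138.0, 128.4 and 143.9 to 22.1, 89.3 and 38.2 (-1.35, adjusted p = 0.0773 without 22-day replicate 1), while polysomes read 144.3, 118.0 and 137.4 and then 130.5, 225.3 and 281.5 (0.56, adjusted p = 0.46), a difference of -1.91 ± 0.33. Its second probe set was not called in RNPs (-0.35, adjusted p = 0.31). Gabpb1, a subunit of an Ets-type factor, gave -1.73 ± 0.40 (adjusted p = 0.0493), close to the threshold. Its fall in RNPs was lost without 17-day replicate 1 (adjusted p = 0.0614) or 22-day replicate 3 (0.0640) or the replicate 2 arrays of both ages (0.0571), and its second probe set gave -0.13 (adjusted p = 0.76).

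Amhr2 and Aard of the Sertoli list showed the same form. Amhr2 read 325.5, 679.3 and 232.3 and then 353.6, 526.0 and 198.9 on polysomes (-0.15), so that the RNP change was lower by -1.61 ± 0.30 (adjusted p = 0.0181). Aard read 2538.7, 2120.3 and 2532.2 and then 1713.7, 1875.5 and 2219.3 there (-0.31), a difference of -1.44 ± 0.29 (adjusted p = 0.0257). Cycs, with 1692.7, 1617.4 and 1783.5 and then 1269.9, 1624.9 and 1625.2 on polysomes, differed by -1.22 ± 0.25 (adjusted p = 0.0286), and Myl9 by -1.30 ± 0.24 (adjusted p = 0.0145). For Cox8a (-1.80 ± 0.41), Tesc (-2.14 ± 0.43) and Nkain1 (-1.75 ± 0.34) the polysome differences were -1.28, -0.59 and -0.65, none of them called.

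**Figure D4:**
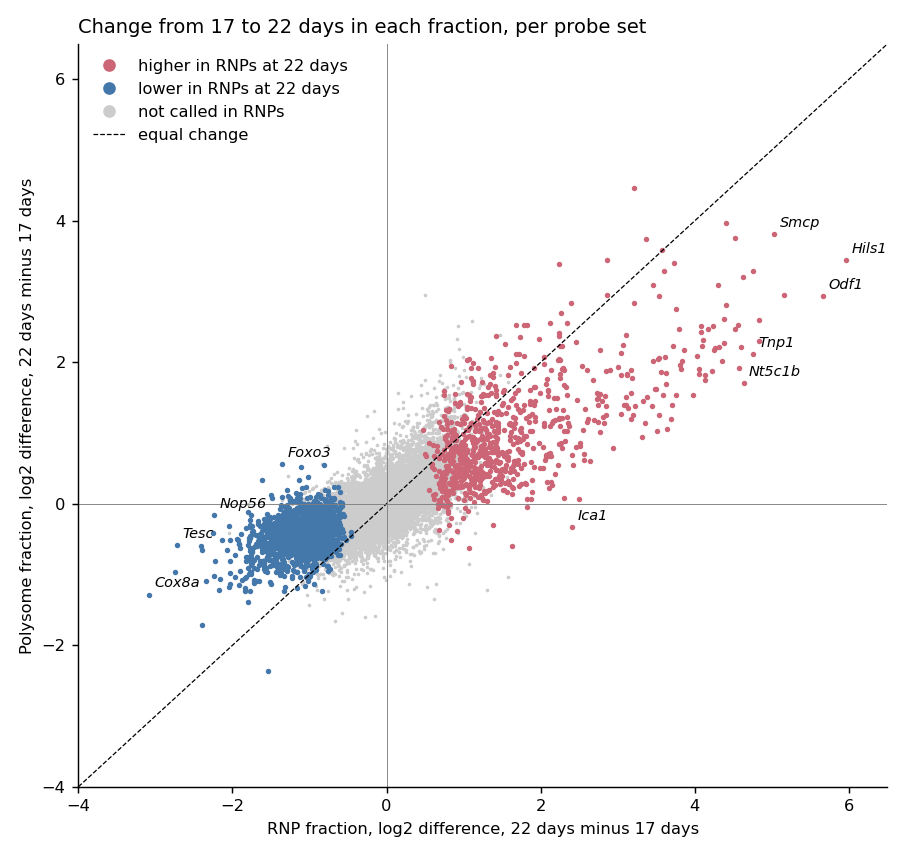
Change from 17 to 22 days in RNPs (horizontal) and on polysomes (vertical), in log2 units, for each of 14066 tested probe sets, with those called higher in RNPs in red, those called lower in blue, the rest in grey and a dashed line of equal change. The largest RNP rises, such as Hils1 at 5.96 and 3.44, lie below the line of equal change. They were picked by their RNP change, which by itself favours points below that line. Ica1, Nop56 and Foxo3, also called in RNPs by choice, lie where polysomes were not called.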

How the data were processed

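Testis RNA from 2 gradient fractions at 3 ages was measured on 18 Affymetrix arrays. The deposited values are intensity values on a linear scale, made by the authors, whose submitters' processing notes name MAS5 without a version. Each array's mean after trimming 2% at each end was 150.0 to 150.1. Array medians differed by at most 1.39 times, so no quantile normalization was applied. Values were taken as log2(value + 15.4), the 25th percentile of all values being added. Of 22690 probe sets, 64 controls were left out and 14066 passed the filter. Names came from the platform annotation, with 20393 probe sets having 1 gene symbol, 691 several and 1606 none. A limma model (limma 3.58.1, R 4.3.3, lmFit and eBayes with trend) held all 18 arrays in 6 groups, with 12 residual degrees of freedom, two-sided tests and Benjamini-Hochberg adjustment at 0.05. Its RNP comparison was run on simulated data with independent noise in each array. These data held no shared deviation of paired arrays and no outlying replicate, and the blocked model was not simulated.

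Members and lists were chosen with earlier results of these data known. Named genes are the 12 largest rises and 12 largest falls with groups that do not overlap, up to 4 called members per list in the main direction and 2 in the other, 18 genes given whatever their values, the 6 largest differences between fractions in each direction, and the 3 probe sets on each side of the threshold. The differences between fractions were taken among probe sets also called in RNPs, with RNP groups that do not overlap. That rule was widened to the blocked model, since the other model called 0. Further list members were named after their values were seen. A list gene with several probe sets is represented by its brightest. Promoter windows are RefSeq's. Same-numbered arrays of the 2 fractions of an age deviated together (0.198 to 0.566 in 6 pairs), while those of 17 and 22 days in RNPs did not (-0.118 to 0.0519), so numbers pair fractions but not ages. The number of arrays limits the precision. Scaling, pseudocount, filter, trend, arrays in the fit and single arrays left out were varied.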

Additional observations from a re-analysis of the deposited data

Results flagged for a closer look

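The following log2 differences, RNP change minus polysome change from 17 to 22 days, stood out because the change between ages differed between the fractions in a limma model with the pair of fractions as a block. Without the block limma called 0 probe sets. Among genes of chromatin condensation and the tail, the values were 2.73 for Odf1, 2.64 for Tnp1, 2.52 for Hils1, 2.38 for Odf3, 2.21 for Prm2 and 1.60 for Spag4. The Prm1 probe sets gave 2.38, 1.79 and 1.57, and those of Akap4 gave 2.24, 2.03 and 1.86. Other genes gave 2.93 (Nt5c1b), 2.75 (Ica1), 2.65 (Cypt1), 2.58 (Prkcq), 2.52 (St6galnac2), 2.43 (Capza3), 2.29 (Gapdhs), 2.20 (Dpysl3), 2.15 (Fhl5), 2.10 (Tssk2), 2.08 (Actl7a), 2.04 (Iqcf3), 1.91 (Aldoart2), 1.76 (Aldoart1), 1.70 (Gsg1), 1.68 (Tssk3), 1.51 (Hspa1l) and 1.46 (Klhl10). The change was lower in RNPs by -2.14 for Tesc, -2.08 for Nop56, -1.91 for Foxo3, -1.80 for Cox8a, -1.75 for Nkain1, -1.73 for Gabpb1, -1.61 for Amhr2, -1.44 for Aard, -1.30 for Myl9 and -1.22 for Cycs.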

How the results depend on the processing

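Of 107 named and called probe sets, 67 kept their call in each of the up to 19 settings run and 40 lost it in at least 1. Of 53 other called list members, 15 kept it in each. Leaving out 1 array of the groups compared in turn, RNP calls ran from 855 to 2396 (375 to 760 higher, 480 to 1636 lower), polysome calls from 155 to 461, adult minus 22-day RNP calls from 668 to 1829 around 1964, list members called from 63 to 123 around 130, named probe sets from 71 to 102, and calls of the difference between fractions from 0 to 91. With only the arrays compared in the fit, RNP calls were 3310 (1252 higher), adult minus 22-day calls 965 and calls of the difference 1. That count was also 1 with the pseudocount at the 50th percentile. With the replicate number as a block, the pairing gave 2548 RNP calls, 1132 polysome calls and 1189 adult minus 22-day calls, but these numbers do not pair ages. The pair of fractions as a block gave 205 calls of the difference, and 325 without 22-day replicate 2. Signs turned only for uncalled genes. Under quantile normalization, the same within fractions and median centring, Ldhc gave 0.0015, 0.0092 and 0.087 and Crem 0.0029, 0.0033 and 0.0064, and median centring gave 0.025 for Actb and 0.033 for Piwil1. Leaving out 1 array in turn, Ldhc ran from -0.094 to 0.043, Ddx4 from -0.092 to 0.29, Actb from -0.19 to 0.023 and Crem from -0.28 to 0.059. With 17-day replicate 2 and adult replicate 1 left out, Ldhc gave 0.043 and Ddx4 -0.092, and without the replicate 2 arrays of both ages they gave 0.026 and -0.16. The cause of these changes was not tested. Signals near background, such as those of Tnp2 at 17 days, limit the size of the folds.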
